A study of Rattus norvegicus with 4 samples.

Results

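Peaks of histone H3 trimethylated at lysine 9 (H3K9me3) that lie on unplaced scaffolds of the rat rn6 assembly were examined in mesenchymal stem cells, which are stromal progenitors, from the adipose tissue of Sprague Dawley rats. A peak belonged to this set when its sequence name was neither a chromosome from 1 to 20 nor X, Y or the mitochondrial chromosome. There were 711 such peaks among the 25633 peaks of the H3K9me3 lists, 214 of 8929 in the vehicle list (2.40%, 95% interval 2.09 to 2.74%) and 497 of 16704 in the BCAA list (2.98%, 2.72 to 3.24%). They lay on 101 scaffolds, of which 91 had names starting with KL and 10 had names starting with AABR. The names carry no chromosome, and whether the assembly ties any of these scaffolds to one was not examined here.

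The cells were kept in customized DMEM/HG without branched-chain amino acids (BCAA), with serum and antibiotics. Hydrogen peroxide at 100 µM was present in all 4 groups, and no group without it was analysed here. The vehicle groups received vehicle and the BCAA groups 3.432 mM BCAA for 12 h, and each treatment gave 1 library with an antibody to H3K9me3 and 1 with normal rabbit IgG. Each group is 1 library, and whether cells of several animals were pooled was not given in the sources used here. Differences between vehicle and BCAA thus lack a replicate check, no p-value was computed, and the intervals cover counting error only. The lists hold peaks alone, so markers of the cell type could not be checked.

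H3K9me3 marks constitutive heterochromatin, the compact chromatin that silences satellite repeats, transposable elements and some gene clusters. It is placed by histone methyltransferases and bound by heterochromatin protein 1. CUT&Tag maps it by directing a transposase to the chromatin that the antibody binds and sequencing the DNA cut there. Unplaced scaffolds are assembled pieces of sequence that were not joined to a chromosome. Such sequence is often rich in repeats, and a read that matches several places equally well cannot be assigned to one of them with certainty. How such reads were treated was not given in the sources used here.

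The libraries differed in ways that touch every value below. The lists give no read totals, so depth is unknown. On scaffolds the shortest peak was 119 bp in the vehicle list and 163 bp in the BCAA list, the same minima as on chromosomes. Of the 214 vehicle peaks on scaffolds, 144 (67.3%) were shorter than any BCAA peak. The lowest −log10 p differed too, and holding both lists to the higher of the lowest values, 4.33, left all 214 vehicle peaks and 412 BCAA peaks on scaffolds. The part of length, depth and p limit in the differences between the lists was not tested.

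Most of the scaffold peaks lay on a few long scaffolds. The 10 scaffolds with the most peaks held 143 vehicle and 358 BCAA peaks, 70.5% of the set. KL568162.1 had 30 vehicle and 67 BCAA peaks, which covered 4503 and 15018 bp. KL568139.1 had 24 and 72 (3636 and 14618 bp), KL568161.1 had 21 and 57 (3261 and 10548 bp), and KL568157.1 had 14 and 40 (2190 and 8745 bp). They were followed by KL568149.1 with 11 and 24, KL568159.1 with 15 and 19, KL568141.1 with 8 and 23, KL568148.1 with 6 and 25, KL568156.1 with 11 and 17, and KL568160.1 with 3 and 14. All 10 had more peaks in the BCAA list than in the vehicle list. At the other end, 56 of the 101 scaffolds held a single peak, 16 of them a vehicle peak and 40 a BCAA peak.

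These 10 scaffolds have names in an unbroken series of 27, from KL568139.1 to KL568165.1. This series was singled out after its values had been seen. Each of the 27 carried at least 1 peak, and together they held 177 vehicle and 423 BCAA peaks, 84.4% of the set. The other 74 scaffolds held 37 and 74 peaks. Scaffold lengths were not used here, and the highest peak end in any list stood in for them as a lower bound. By that measure the scaffolds of the series reached 74.5 kb to 10.8 Mb (median 984 kb), and the others reached 0.26 to 401 kb (median 14.1 kb). The highest ends were 10.8 Mb on KL568162.1, 9.75 Mb on KL568139.1, 7.55 Mb on KL568161.1 and 6.44 Mb on KL568148.1.

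The density of peaks on the 10 scaffolds mostly lay within the range of the chromosomes. In each list 6 of the 10 lay within it, 2 above and 2 below with vehicle, and 3 above and 1 below with BCAA. Over the 27 scaffolds of the series there were 2.70 vehicle peaks per Mb (95% interval 2.31 to 3.12) and 6.44 BCAA peaks per Mb (5.84 to 7.09). On chromosomes 1 to 20 and X, measured the same way, the density ranged from 1.76 to 4.53 per Mb (median 3.16) with vehicle and from 3.88 to 7.68 (median 5.89) with BCAA. Y, which is not part of this range, had 3.07 (1.47 to 5.64) and 6.44 (3.99 to 9.85). The lowest density was on X and the highest on chromosome 12 in both lists. KL568148.1 had 0.932 vehicle peaks per Mb (0.342 to 2.03) and 3.88 BCAA peaks per Mb (2.51 to 5.73). KL568160.1 had 0.696 (0.144 to 2.04) and 3.25 (1.78 to 5.45). Their vehicle densities were under that of every chromosome, although the intervals reached that of X. KL568159.1 was the densest of the 10 in both lists, at 7.72 vehicle peaks per Mb (4.32 to 12.7) and 9.77 BCAA peaks per Mb (5.88 to 15.3). These 10 were chosen by their number of peaks, so long scaffolds with few peaks are not among them. Of the 13 scaffolds that reached 1 Mb or more, KL568151.1, KL568140.1 and KL568155.1 were outside the 10. KL568151.1 had 0.329 vehicle (0.00832 to 1.83) and 0.986 BCAA peaks per Mb (0.203 to 2.88), under every chromosome. Its vehicle value came from 1 peak, and that interval reached the 1.76 of X. KL568140.1 had 1.65 in each list, and KL568155.1 had 2.23 and 8.92. Scaffolds whose length is understated by the highest peak end appear denser than they are, and for the short scaffolds with a single peak the density was therefore not read.

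**Figure D1:**
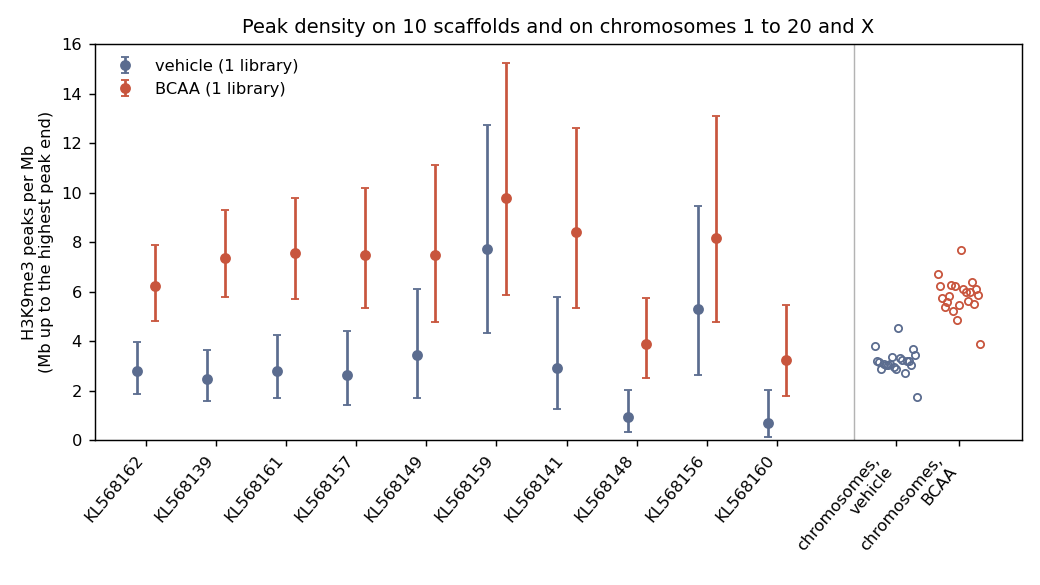
H3K9me3 peaks per Mb (y axis) on the 10 scaffolds with the most peaks, in order of their number (x axis), with exact Poisson 95% intervals, and on each of chromosomes 1 to 20 and X (open circles, in that order) for 1 vehicle and 1 BCAA library. KL568148 and KL568160 had the lowest vehicle values (0.932 and 0.696 per Mb) and KL568159 the highest (7.72 per Mb).

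The BCAA list had 2.32 times as many scaffold peaks as the vehicle list (95% interval 1.97 to 2.74), against 1.86 times on chromosomes 1 to 20, X and Y (1.81 to 1.91). Set against the chromosomes, the ratio was 1.25 (1.06 to 1.48). On single chromosomes from 1 to 20 and X, the BCAA to vehicle ratio ranged from 1.64 on chromosome 10 to 2.21 on X. On Y it was 2.1. The scaffold value of 2.32 was above each of these, but its interval included the ratios of chromosomes 7, 15 and 17, X and Y. The interval of 1.06 to 1.48 does not cover this spread between chromosomes. For the series KL568139.1 to KL568165.1, the ratio set against the chromosomes was 1.28 (1.07 to 1.54). It was 1.08 on the other scaffolds (0.714 to 1.64), where the interval included equality, and the difference between the scaffold classes was not tested. Without the 4 scaffolds with the most peaks the ratio was 1.12 (0.902 to 1.40), and with BCAA peaks limited to the length of the vehicle list it was 1.13 (0.933 to 1.37). Among peaks of −log10 q of at least 2 it was 1.23 (0.946 to 1.62). These 3 intervals included equality.

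Among the 10 scaffolds with the most peaks, ratios of BCAA to vehicle peaks ran from 1.27 on KL568159.1 (95% interval 0.61 to 2.68) to 4.67 on KL568160.1 (1.302 to 25.3). KL568139.1 was the 1 scaffold of the 10 whose interval excluded the ratio of 1.86 over all chromosomes, at 3.0 (1.87 to 4.98). Its interval included the 2.21 of X. KL568148.1 had a ratio of 4.17 (1.67 to 12.4) and KL568157.1 one of 2.86 (1.52 to 5.69). Over all 101 scaffolds, 69 had more BCAA than vehicle peaks, 19 had more vehicle peaks and 13 had equal numbers. Among the latter 32, KL568153.1 had 5 vehicle peaks and 1 BCAA peak, a ratio of 0.2 (0.00423 to 1.79). KL568150.1 had 4 and 2, a ratio of 0.5 (0.0452 to 3.49). Both intervals included equality.

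The peaks covered 35403 bp of scaffold sequence with vehicle and 106478 bp with BCAA, a ratio of 3.01, against 2.46 on chromosomes. Mean width was 165.4 bp with vehicle. With BCAA it was 214 bp, and the different shortest lengths of the lists bear on both. The median vehicle peak on scaffolds was 152 bp wide (quartiles 140 and 166), and the median BCAA peak 183 bp (173 and 202). Wide peaks were few. There were 3 vehicle peaks of 500 bp or more (1.40%) against 240 of 8710 on chromosomes (2.76%), and 20 BCAA peaks (4.02%, 95% interval 2.48 to 6.15%) against 999 of 16203 (6.17%, 5.80 to 6.55%). The odds ratios of scaffold to chromosome, 0.502 (0.102 to 1.505) and 0.638 (0.384 to 1.00), had intervals that included equality. No scaffold peak of either list reached 1000 bp, which, at 3 counts of the total, allows a share of up to 1.40% with vehicle and 0.604% with BCAA. On chromosomes 26 vehicle peaks (0.299%) and 127 BCAA peaks (0.784%) did.

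The widest BCAA peak on a scaffold was KL568273.1:2069-3002, 934 bp, with a fold enrichment of 3.90. Fold enrichment is the authors' linear ratio of signal to local background, set for each library on its own. It overlapped the vehicle peak KL568273.1:2594-3170 (577 bp, 4.60), the second widest of the vehicle list on scaffolds. The next widest BCAA peaks, KL568434.1:62212-63131 (920 bp, 3.74) and KL568162.1:4054485-4055403 (919 bp, 2.77), met no vehicle peak. The value of 2.77 equalled the lowest fold enrichment of the BCAA scaffold peaks. With vehicle the widest was KL568201.1:1-681, which began at the first base of its scaffold, with a fold enrichment of 13.9, and no BCAA peak lay on that scaffold. The third was AABR07022335.1:4-564 (561 bp, 4.405), which lay at an IgG peak.

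Scaffold peaks were mostly weak, and a larger share of them than of the chromosome peaks rested on 2 fragments. Where a peak has the same height along its length, its fold enrichment and p-value together give the number of overlapping fragments under the usual formulas of the peak caller. Exactly 2 fragments were read for 139 of 214 vehicle peaks (65.0%, 95% interval 58.2 to 71.3%), against 53.3% of the whole list and 53.1% on chromosomes. With BCAA they were read for 232 of 497 (46.7%, 42.2 to 51.2%), against 38.9% of the whole list and 38.7% on chromosomes. The odds ratios of scaffold to chromosome were 1.64 (1.22 to 2.21) and 1.39 (1.16 to 1.67), and both intervals excluded equality. Without the 4 scaffolds with the most peaks the shares were 56.0% with vehicle (46.8 to 64.9%) and 43.7% with BCAA (37.6 to 49.9%). These intervals included the chromosome shares. On scaffolds a whole fragment number could be read for 68.7% of vehicle peaks and 57.3% of BCAA peaks, against 60.6% and 50.4% on chromosomes, and peaks without one are not among the 2-fragment peaks. Median fold enrichment on scaffolds was 2.90 with vehicle (quartiles 2.86 and 3.09) and 2.98 with BCAA (2.81 and 3.92). On chromosomes it was 2.93 (2.86 and 3.73) and 3.38 (2.82 and 4.02).

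Strong peaks were defined by a −log10 q of at least 5, where q is the p-value corrected for the number of tests by the authors' peak caller. There were 6 on scaffolds with vehicle (2.80%, 95% interval 1.04 to 6.002%), against 5.61% of the whole list, and 28 with BCAA (5.63%, 3.78 to 8.04%), against 5.77%. The odds ratios of scaffold to chromosome were 0.483 (0.174 to 1.08) and 0.979 (0.640 to 1.44), and both intervals included equality. Among strong peaks the ratio of BCAA to vehicle numbers, set against chromosomes, was 2.46 (0.99 to 7.32). Among peaks of fold enrichment of at least 5 it was 2.53 (1.22 to 5.88), from 9 vehicle and 49 BCAA peaks on scaffolds. As each library has its own background, sites chosen by 1 limit may differ between the lists.

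With vehicle, the strongest scaffold peak was KL568141.1:1804751-1804876, 126 bp wide, with a fold enrichment of 39.1 and a −log10 q of 404. The BCAA list held no peak there, and the nearest was 13037 bp away. The other 5 strong vehicle peaks were KL568292.1:1217-1452 (fold enrichment 24.96), KL568201.1:1-681 (13.9) and 3 peaks on KL568157.1, and their −log10 q ran from 7.17 to 82.1. Of these 6 peaks, 4 were met by a BCAA peak.

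With BCAA, the 28 strong peaks were spread over 18 scaffolds and reached a fold enrichment of 18.6. KL568139.1 held 3 of them, starting at 8262447, 9672583 and 9738302, and none of the 3 was met by a vehicle peak. KL568458.1, which reached 53.3 kb, held 4 strong peaks among its 5 BCAA peaks, at fold enrichments of 6.09 to 7.72. Its 2 vehicle peaks, KL568458.1:25461-25715 (fold enrichment 5.20) and 31973-32157 (4.82), both lay inside BCAA peaks, at 25401-25715 (7.72) and 31928-32437 (7.51). KL568146.1, which reached 116 kb, held 1 vehicle peak at 1493-1627 (3.69) within a BCAA peak at 793-1671 (5.96). It also held 4 further BCAA peaks, among them KL568146.1:116208-116388 (10.9). KL568142.1 held 6 BCAA peaks, with fold enrichments up to 5.59 at 285138-285364, and no vehicle peak.

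**Figure D2:**
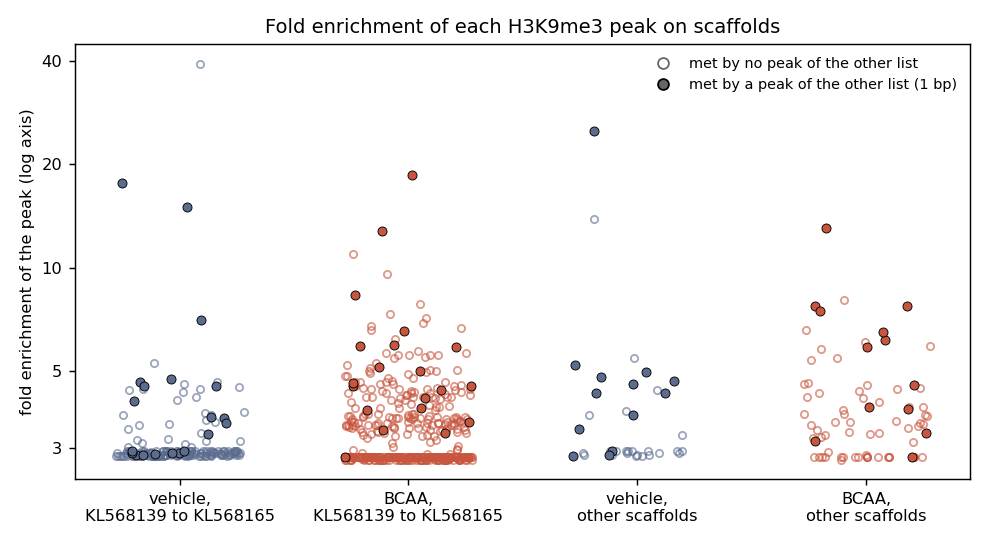
Fold enrichment of every H3K9me3 peak on scaffolds (log axis), by list and by scaffold class (x axis, points spread sideways for view), with filled points for peaks met by a peak of the other list. Most points lie near 3, and the highest is the vehicle peak on KL568141 at 39.1, which no BCAA peak met. Each list is on the background of its own library.

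Overlap between the lists on scaffolds was low, and did not differ from that of the chromosome peaks beyond its interval. Peaks of different lists that shared at least 1 bp were said to meet. A BCAA peak met 33 of 214 vehicle peaks (15.4%, 95% interval 10.9 to 20.97%), against 16.9% of the whole vehicle list. A vehicle peak met 33 of 497 BCAA peaks (6.64%, 4.61 to 9.20%), against 8.81% of the whole BCAA list. The odds ratios of scaffold to chromosome were 0.894 (0.595 to 1.31) and 0.732 (0.496 to 1.05). Of the vehicle peaks on scaffolds shorter than any BCAA peak, 13 of 144 were met (9.03%), and of the longer ones 20 of 70 (28.6%). The matching shares on chromosomes were not computed, so this is not a trait of the scaffolds. The part of peak strength in it was not tested.

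The share of peaks met was higher among stronger peaks on scaffolds, as it was on chromosomes. With vehicle it was 2 of 37 at −log10 q under 1.5 (5.41%, 95% interval 0.661 to 18.2%), 7 of 87 from 1.5 to 2 (8.05%), 20 of 84 from 2 to 5 (23.8%) and 4 of 6 at 5 or more (66.7%, 22.3 to 95.7%). With BCAA it was 4 of 269 (1.49%, 0.407 to 3.76%), 4 of 61 (6.56%), 13 of 139 (9.35%) and 12 of 28 (42.9%, 24.5 to 62.8%). In the strongest class, 76.0% of vehicle and 60.1% of BCAA peaks were met over the whole lists. The odds ratio of scaffold to chromosome in that class was 0.633 with vehicle (0.0895 to 7.08) and 0.49 with BCAA (0.209 to 1.12), and the intervals included equality. Of the 16 strong BCAA peaks that met no vehicle peak, 2 lay on scaffolds without any vehicle peak. For the others the nearest vehicle peak was 3.37 to 283 kb away (median 95.2 kb).

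**Figure D3:**
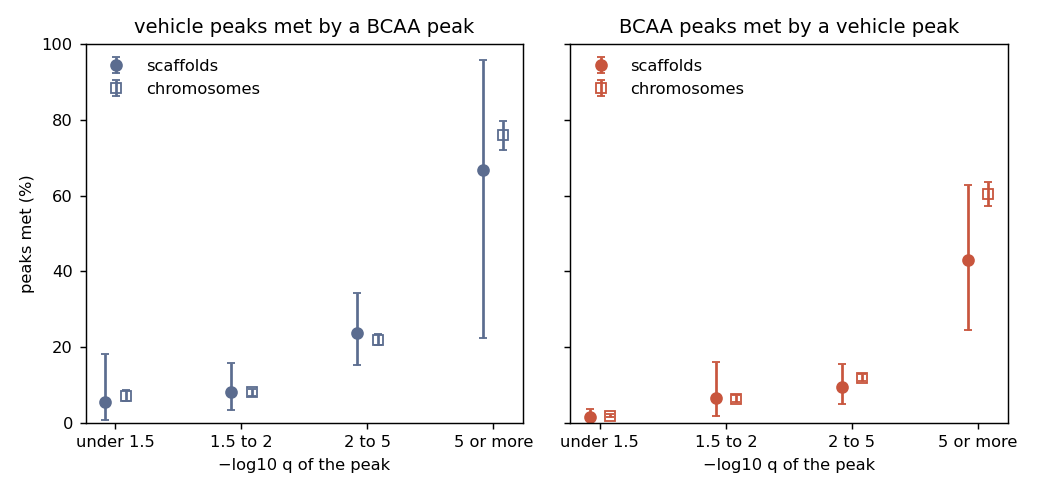
Share of peaks met by a peak of the other list (y axis, %) against the −log10 q of the peak (x axis), for scaffolds (filled) and chromosomes 1 to 20, X and Y (open), with exact 95% intervals, 1 library per list. In each panel the scaffold intervals include the chromosome values, and at 5 or more the shares on scaffolds were 66.7% of 6 vehicle and 42.9% of 28 BCAA peaks.

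Within the scaffolds, sharing was more frequent outside the series KL568139.1 to KL568165.1. On the other scaffolds 13 of 37 vehicle peaks were met (35.1%, 95% interval 20.2 to 52.5%), against 20 of 177 on the series (11.3%, 7.04 to 16.9%), an odds ratio of 4.25 (1.69 to 10.3). For BCAA peaks the numbers were 13 of 74 (17.6%, 9.70 to 28.2%) and 20 of 423 (4.73%, 2.91 to 7.21%), an odds ratio of 4.29 (1.85 to 9.58). Peaks on the other scaffolds also reached the lower limit of −log10 q more often. A −log10 q of at least 2 was reached by 24 of 37 vehicle peaks there (64.9%) against 66 of 177 (37.3%), and by 37 of 74 BCAA peaks (50%) against 130 of 423 (30.7%). On chromosomes it was reached by 43.2% of vehicle and 34.9% of BCAA peaks. Strong BCAA peaks numbered 10 of 74 (13.5%) against 18 of 423 (4.26%), an odds ratio of 3.52 (1.38 to 8.43). Strong vehicle peaks numbered 2 of 37 (5.41%) against 4 of 177 (2.26%). Their odds ratio was 2.47 (0.215 to 17.9), and its interval included equality. The share of 2-fragment BCAA peaks was 27.0% on the other scaffolds (17.4 to 38.6%) and 50.1% on the series (45.2 to 55.0%). On chromosomes it was 38.7%, so only the series lay above that share. For vehicle peaks it was 56.8% (39.5 to 72.9%) and 66.7% (59.2 to 73.6%), against 53.1% on chromosomes. Since the series was singled out after its values had been seen, these differences are descriptions. KL568245.1 held peaks of 156 and 168 bp, and its highest peak end, a lower bound of its length, was at 260 bp. The pair on KL568292.1 lay at IgG peaks. The part of scaffold length in these differences was not tested.

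By presence of any peak, the classes differed the other way, with a median of 8 peaks per scaffold in the series and 1 outside it. Both lists had peaks on 39 of the 101 scaffolds (38.6%, 95% interval 29.1 to 48.8%), the vehicle list alone on 16 and the BCAA list alone on 46. Of the 27 scaffolds of the series, 23 carried peaks of both lists, and of the other 74 only 16 did. Each of the 10 AABR scaffolds held a single peak, so none could carry peaks of both lists. The same held for all 56 scaffolds with a single peak. An overlapping pair was found on 23 scaffolds, 11 in the series and 12 outside it.

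The 33 met peaks of each list formed 33 pairs. KL568157.1 held 5 of them, more than any other scaffold, followed by KL568162.1 and KL568156.1 with 3 each. The BCAA peak was the wider in 28 of the 33 pairs and spanned the whole vehicle peak in 18. Paired vehicle peaks had a median width of 171 bp, paired BCAA peaks one of 223 bp, and the median overlap was 164 bp (53 to 409 bp). Both peaks had a −log10 q of at least 5 in 3 pairs and under 2 in 2 pairs.

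The 3 pairs that were strong in both lists had nearly the same borders. KL568157.1:1989652-1989842 in the vehicle list (fold enrichment 17.6) and 1989654-1989846 in the BCAA list (18.6) overlapped over 189 bp. KL568157.1:2775652-2775845 (15.0) and 2775653-2775847 (12.8) overlapped over 193 bp. The third pair, KL568292.1:1217-1452 (24.96) and 1218-1434 (13.03), lay at a site that IgG also called. The next pairs by the lower of their fold enrichments were KL568458.1:25461-25715 with vehicle (5.20) and 25401-25715 with BCAA (7.72), and KL568466.1:12094-12225 (4.97) and 12059-12239 (6.49). KL568157.1 thus held shared peaks of high enrichment. KL568159.1, KL568149.1, KL568141.1 and KL568160.1 held no shared peak among 15, 11, 8 and 3 vehicle peaks. On the whole series 20 of 177 vehicle peaks were met (11.3%), and these scaffolds were singled out for having no shared peak. A difference between these scaffolds was not tested.

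Of the scaffold peaks that met no peak of the other list, the 5 of highest enrichment with BCAA were KL568146.1:116208-116388 (10.9), KL568148.1:1587154-1587380 (9.58), KL568374.1:297555-297821 (8.08), KL568161.1:259458-259661 (7.85) and KL568139.1:9738302-9738496 (7.35). They were 181 to 267 bp wide. With vehicle they were KL568141.1:1804751-1804876 (39.1), KL568201.1:1-681 (13.9), KL568304.1:6591-6974 (5.47), KL568156.1:918486-918643 (5.30) and KL568153.1:133277-133415 (4.67). The widths of the latter ran from 126 to 681 bp, and KL568304.1:6591-6974 lay at an IgG peak.

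Few scaffold peaks had a close neighbour. A neighbour of the same list within 5 kb was found for 4 of 214 vehicle peaks (1.87%, 95% interval 0.512 to 4.72%), against 4.73% of the whole list, and for 12 of 497 BCAA peaks (2.41%, 1.25 to 4.18%), against 4.76%. The odds ratio of scaffold to chromosome was 0.383 with vehicle (0.103 to 1.00) and 0.49 with BCAA (0.25 to 0.869), so the interval excluded equality with BCAA only. A peak that is alone on its scaffold can have no neighbour, which held for 34 vehicle and 53 BCAA peaks. Without these the shares were 2.22% (0.609 to 5.59%) and 2.70% (1.40 to 4.67%), and the interval of the latter stayed below the 4.81% found on chromosomes. The BCAA difference was not seen at 10 kb, where 70 of 497 BCAA scaffold peaks had a neighbour (14.1%), against 14.4% on chromosomes, and 15.8% of those not alone on their scaffold. With vehicle 14 of 214 had one at 10 kb (6.54%), against 11.1% on chromosomes. The median distance to the nearest neighbour was 84.6 kb with vehicle and 45.6 kb with BCAA, close to the 83.7 and 49.97 kb on chromosomes.

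On the 4 scaffolds with the most peaks, the median spacing from start to start was 318 kb with vehicle and 79.9 kb with BCAA on KL568162.1, 179 and 80.7 kb on KL568139.1, 213 and 96.5 kb on KL568161.1, and 185 and 53.4 kb on KL568157.1. The vehicle peaks of these 4 scaffolds had no neighbour within 5 kb. The one group of more than 2 scaffold peaks within 5 kb of each other was on KL568157.1, where 4 BCAA peaks lay within 9623 bp. They were KL568157.1:3155396-3155597 (fold enrichment 6.75), 3158351-3158549 (5.01), 3163037-3163255 (6.21) and 3164220-3165018 (4.80). The nearest vehicle peak was 139715 bp from the group. The remaining close pairs were on KL568139.1, KL568156.1, KL568458.1 and KL568461.1 with BCAA, and on KL568141.1 and KL568149.1 with vehicle, where all 4 peaks were of 2 fragments.

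**Figure D4:**
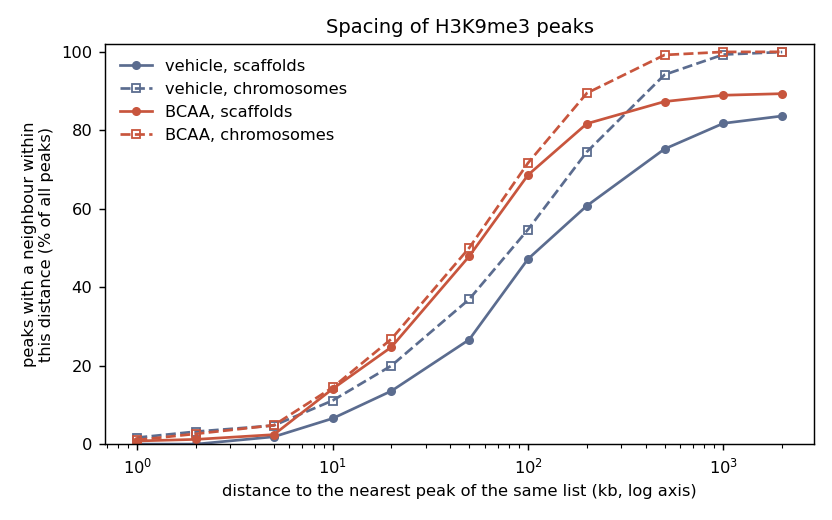
Share of peaks (y axis, % of all peaks of the set) with a peak of the same list within the distance on the x axis (kb, log axis), for scaffolds (solid lines) and chromosomes 1 to 20, X and Y (dashed lines), 1 library per list. At 5 kb the scaffold curves are at 1.87% with vehicle and 2.41% with BCAA, and they level off below 100% because some peaks are alone on their scaffold.

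The IgG lists, from an antibody without a chromatin target, held 3 scaffold peaks with vehicle and 1 with BCAA, and every one of them lay on a scaffold outside the series KL568139.1 to KL568165.1. All 4 coincided with an H3K9me3 peak of the same treatment. At KL568292.1 the IgG peaks spanned 1218-1507 with vehicle (fold enrichment 17.95) and 1222-1451 with BCAA (10.8), and the H3K9me3 peaks 1217-1452 (24.96) and 1218-1434 (13.03). This was the only H3K9me3 peak of either list on KL568292.1. At AABR07022335.1 the vehicle IgG peak 112-567 (6.02) lay on the vehicle H3K9me3 peak 4-564 (4.405), and at KL568304.1 the vehicle IgG peak 6307-6789 (6.56) overlapped the H3K9me3 peak 6591-6974 (5.47). No BCAA peak lay on either scaffold.

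Peaks at IgG peaks were a larger part of the scaffold peaks than of the chromosome peaks in the vehicle library. They numbered 3 of 214 on scaffolds (1.40%, 95% interval 0.29 to 4.04%), against 0.101% of the whole list, mitochondrial peaks included, and 2 of 8710 on chromosomes. The odds ratio of scaffold to chromosome was 61.9 (7.03 to 743). With BCAA they numbered 1 of 497 (0.201%, 0.00509 to 1.12%), against 0.0539% of the whole list and 4 of 16203 on chromosomes, and the interval of the odds ratio, 8.16 (0.165 to 82.7), included equality. None of the peaks on the 27 scaffolds of the series lay at an IgG peak. Without the peaks at IgG peaks of either list, 211 vehicle and 496 BCAA peaks remained on scaffolds, and the ratio of peak numbers set against chromosomes was 1.26 (1.07 to 1.49).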

How the data were processed

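H3K9me3 and IgG CUT&Tag libraries, 1 per group and 4 in all, were available as 1 list of broad peaks each, called per library. The submitters' processing notes name MACS2, BWA, deepTools, ChIPseeker and build rn6, with no version, role or setting. Use of IgG as a control for peak calls was not given in the sources used here. The authors deposited for each peak a fold enrichment (linear ratio), a −log10 p, a −log10 q and a score (the latter 10 times −log10 q, as a whole number), which was left unused. Read depth is unknown. Positions are 1-based.

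Overlap needed at least 1 bp. Intervals of 95% are exact: Clopper-Pearson for shares. Ratios of counts take that of the matching binomial share, odds ratios the conditional interval and densities the Poisson interval. Peaks of the same sequence are not independent replicates, so these intervals may be too narrow. Fragment numbers up to 60 were sought that matched −log10 p within 0.001, and the calculations were tested on simulated data. Named were the 10 scaffolds with the most peaks, all IgG peaks on scaffolds, the 5 overlapping pairs of highest lower fold enrichment, the 5 unmet peaks of highest enrichment and the 3 longest peaks per list. Other peaks and scaffolds were named after their values had been seen. Members, rules and alternatives were chosen with earlier results of these data known. A genome sequence or annotation of rn6 was not used here, so no sequence, gene or repeat is given. Python 3.11.15, numpy 2.4.6, scipy 1.17.1, pandas 2.3.3 and matplotlib 3.10.9 were used.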

Additional observations from a re-analysis of the deposited data

How the results depend on the processing

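Of 121 recomputed values, 78 stayed within the interval of the reported value (for counts, within 1.5 times), 42 did not and 1 changed direction. The covered-length ratio was read against the relative width of the interval of the peak number ratio. The cause of these shifts was not tested, except that each limit leaves fewer peaks by construction. With −log10 q limited to 2 or more the peak number ratio was 1.86, with 5 or more it was 4.67, with fold enrichment of at least 5 it was 5.44, with lists of equal length it was 1.13 and it was 1.5 on AABR scaffolds alone. The covered-length ratio under these was 2.33, 4.44, 5.09, 1.58 and 1.16. With settings chosen after seeing the data, the peak number ratio was 3.53 without 2-fragment peaks and 1.93 with a common p limit. The ratio of covered lengths was 4.37, 2.45 and, without KL568139.1 to KL568165.1, 2.47.

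The ratio set against chromosomes was 2.46 with −log10 q limited to 5 or more, 2.53 at fold enrichment of at least 5, and turned to 0.806 on AABR scaffolds alone (4 and 6 peaks). Limits on −log10 q and fold enrichment apply to both lists here, so that both peaks of a pair must pass. Of vehicle peaks, 50% were then met at −log10 q of at least 5, 44.4% at fold enrichment of at least 5, 0 on AABR scaffolds, 10.75% with reciprocal 50% and 24.3% with a peak within 5 kb. It was 35.1% without KL568139.1 to KL568165.1 and 30.7% without 2-fragment peaks. Of BCAA peaks, 10.8% were met at −log10 q of at least 2, 10.71% at 5, 12.4% with lists of equal length, 0 on AABR scaffolds, 11.1% with a peak within 5 kb and 17.6% without KL568139.1 to KL568165.1. Scaffolds with both lists made up 15.8% at −log10 q of at least 5, 17.9% at fold enrichment of at least 5, 0 of the AABR scaffolds, 85.2% of KL568139.1 to KL568165.1 and 21.6% of the others. As each AABR scaffold held a single peak, the values of 0 on these scaffolds were fixed in advance. A neighbour was found for 0 of vehicle peaks within 1 kb and 6.54% within 10 kb, and for 0 at −log10 q of at least 2 and of at least 5. For BCAA peaks these values were 0.805% and 14.1%, and 0 at −log10 q of at least 5. No paired analysis was possible because vehicle and BCAA had 1 library each. Depth is unknown, so a site without a peak may be one that was not detected.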
